A study of Saccharomyces cerevisiae with 24 samples.

Results

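The genes described here encode the proteasome of budding yeast (Saccharomyces cerevisiae) and the factors that build and regulate it. They are 40 of the 6685 transcripts in the deposited table and were chosen by name: 14 subunits of the core particle (7 of the alpha ring and 7 of the beta ring), 10 subunits of the base and 9 of the lid of the regulatory particle, and 7 further genes, namely the transcription factor RPN4, the assembly factors UMP1, PBA1 and POC4, the activator BLM10, the deubiquitinase UBP6 and the adaptor ECM29. RNA-seq was measured in 24 libraries of BY4741, a laboratory strain of mating type a (MATa) without functional HIS3 and LEU2 (his3∆1, leu2∆0) as well as MET15 and URA3 (met15∆0, ura3∆0) in every group. Cells were unstressed (30 °C, 0 min) or heat shocked (37 °C, 20 min), and RNA of each was isolated by hot acid phenol followed by a column clean-up (Phenol), with a silica column kit (RNeasy) or with a guanidinium and phenol based kit (Direct-zol). Each of the 6 sample types had 4 biological replicates, and the libraries with the same replicate number came from the same culture.

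The proteasome is the large protease that degrades proteins tagged with ubiquitin. Its core particle is a barrel of stacked rings, in which beta subunits carry the proteolytic sites and alpha subunits form the gate. The regulatory particle caps the barrel: the base holds the ATPases (RPT genes) that unfold substrates together with ubiquitin receptors, and the lid holds the deubiquitinase RPN11 among scaffold subunits. In yeast the genes are transcribed under the control of Rpn4, a short-lived activator that is itself degraded by the proteasome and that binds a promoter sequence called the proteasome-associated control element (PACE).

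The alpha genes were SCL1 (YGL011C), PRE8 (YML092C), PRE9 (YGR135W), PRE6 (YOL038W), PUP2 (YGR253C), PRE5 (YMR314W) and PRE10 (YOR362C), and the beta genes PRE3 (YJL001W), PUP1 (YOR157C), PUP3 (YER094C), PRE1 (YER012W), PRE2 (YPR103W), PRE7 (YBL041W) and PRE4 (YFR050C). The base was made up of the ATPases RPT1 (YKL145W), RPT2 (YDL007W), RPT3 (YDR394W), RPT4 (YOR259C), RPT5 (YOR117W) and RPT6 (YGL048C) with RPN1 (YHR027C), RPN2 (YIL075C), RPN10 (YHR200W) and RPN13 (YLR421C). The lid genes were RPN3 (YER021W), RPN5 (YDL147W), RPN6 (YDL097C), RPN7 (YPR108W), RPN8 (YOR261C), RPN9 (YDR427W), RPN11 (YFR004W), RPN12 (YFR052W) and SEM1 (YDR363W-A). The further genes were RPN4 (YDL020C), UMP1 (YBR173C), PBA1 (YLR199C), POC4 (YPL144W), BLM10 (YFL007W), UBP6 (YFR010W) and ECM29 (YHL030W).

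Levels are given as TPM, a relative abundance per transcript length that adds up to a fixed total in every library, so levels of different genes can be compared within a library. The table holds no counts, so the depth behind a value cannot be read from it. Changes are log2 fold changes of TPM scaled between libraries, with a pseudocount of 1, from a limma fit of all 24 libraries with the replicate as a factor. A gene was called when its Benjamini-Hochberg adjusted p over the 6137 transcripts tested was under 0.01. All 40 members passed the filter on low values. The labels fitted the strain and the treatment: LEU2, URA3 and MET15 were at 0.1 TPM or less, the a-specific genes MFA1 and STE2 were at 108.81 TPM or more and their α-specific counterparts MFα1 and STE3 at 14.68 TPM or less. The chaperone gene HSP104 lay between 81.4 and 209 TPM in unstressed and between 2680.0 and 5487 TPM in heat-shocked libraries.

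The promoters of the members were searched for PACE. The members were chosen by name, but PACE is named after the proteasome, so its matches here are a description and not independent support. PACE, searched as GGTGGCAAA on both strands from 250 bases before to 50 bases after the start codon, was found for 28 of the 40 members, against 72 of 6007 windows of the same length over all nuclear coding genes of RefSeq (1.20%, assembly R64, members included). The 28 members had 1 match each, between 75 and 174 bases before the start codon (median 113), and 20 of them read in the direction of the gene. By group, PACE was found for 6 of 7 alpha, 6 of 7 beta, 8 of 10 base and 7 of 9 lid genes, and for ECM29 alone of the 7 further genes. The following matches belong to the genes with the highest or lowest heat shock response of their group, to PRE1 and to ECM29. Capitals mark PACE, with 10 flanking bases on each side. The window starts from the start codon because the RefSeq models of these genes hold no untranslated regions.
PRE8 (YML092C), chrXIII:86841-86869, minus strand, 111 bases before the start codon: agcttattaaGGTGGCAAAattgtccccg
PRE9 (YGR135W), chrVII:761223-761251, plus strand, 150 bases before the start codon: ttaccctgcaGGTGGCAAAaaatttatag
PRE3 (YJL001W), chrX:435035-435063, plus strand, 109 bases before the start codon: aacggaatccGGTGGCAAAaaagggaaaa
PRE2 (YPR103W), chrXVI:732184-732212, plus strand, 146 bases before the start codon: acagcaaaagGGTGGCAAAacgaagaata
PRE1 (YER012W), chrV:177683-177711, plus strand, 133 bases before the start codon: aaatctttacGGTGGCAAAaaataaagaa
RPT3 (YDR394W), chrIV:1261495-1261523, plus strand, 167 bases before the start codon: ctgaaagtaaGGTGGCAAAatagtaaatc
RPN7 (YPR108W), chrXVI:742290-742318, minus strand, 145 bases before the start codon: atcctcaatgGGTGGCAAActtaacttat
ECM29 (YHL030W), chrVIII:39943-39971, plus strand, 122 bases before the start codon: gccttttcttGGTGGCAAAaaaaaggtac

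The shorter core GTGGCAAA, which is part of PACE, was found for 32 members and for 144 of the 6007 windows (2.40%). It added PRE5, PUP1, RPN8 and UBP6, so that every core particle gene had a match. These 2 examples are shown because they differ from PACE in their first base, where capitals mark the shorter core.
PUP1 (YOR157C), chrXV:631891-631918, minus strand, 149 bases before the start codon: acccggccgaGTGGCAAAataccaaaaa
RPN8 (YOR261C), chrXV:817085-817112, minus strand, 163 bases before the start codon: ggatacctcaGTGGCAAAtcgttactca

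No match to either form was found in this window for RPN10, RPN13, SEM1, RPN4, UMP1, PBA1, POC4 and BLM10. In a window of 500 bases before the start codon, chosen after seeing the data, the same counts of members were found (28 with PACE and 32 with the shorter core), against 1.65% and 3.78% of all windows. A heat shock element, the binding sequence of the heat shock factor Hsf1, was searched on both strands as the units TTC, GAA and TTC with 2 bases between units. From 250 bases before to 50 bases after the start codon, RPN4 was the only member with a match (0.782% of all windows). This form is strict: the heat shock genes HSP104, SSA4 and HSP26 had no match in that window either. A missing match thus does not show that Hsf1 does not bind. The match of RPN4 is shown because no other member had one, and capitals mark it.
RPN4 (YDL020C), chrIV:416709-416737, minus strand, 8 bases before the start codon: caaaagttTTCTAGAATTTTCaagcaatc

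The stress response element AGGGG, bound by Msn2 and Msn4, was found for 8 members (21.6% of all windows), and the Pdr1/Pdr3 element TCCGCGGA for RPN11 only, inside its coding sequence (0.216% of all windows). A match is a description of the sequence and does not show that the factor bound there.

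In unstressed cells the 33 subunit genes had levels within a narrow range. Their mean levels lay between 89.5 TPM (RPN9) and 257 TPM (SEM1) in the Phenol libraries, a ratio of 2.88, with a median of 170.0 TPM against 34.0 TPM for all transcripts of the table. With RNeasy the range was 122 to 488 TPM and with Direct-zol 90.7 to 384 TPM, and RPN9, a lid subunit, and SEM1, the smallest lid subunit, were the lowest and the highest subunits there too. The libraries are from whole cultures, so a level shared by all cells and one carried by some of them cannot be told apart. Within single unstressed libraries the SD of log2 TPM among the 33 genes was 0.33 to 0.44, and in heat-shocked libraries 0.30 to 0.46. The spread of levels among the subunits was thus about as wide after heat shock as before it.

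Per gene, and as means of 4 libraries, core transcripts were the most abundant of the 3 groups in every sample type. In some single RNeasy libraries the lid was higher per gene. In unstressed replicate 4 the lid summed to 2431 TPM over 9 genes and the core to 3464 TPM over 14. In unstressed cells the summed level of the core was 2664 ± 120 TPM with Phenol, 3669 ± 152 TPM with RNeasy and 3535 ± 181 TPM with Direct-zol (mean ± SD, n = 4 each), which is 190 TPM, 262 TPM and 252 TPM per gene. The base summed to 1697 ± 112, 2298 ± 22.5 and 2065 ± 85.2 TPM (170 TPM, 230 TPM and 207 TPM per gene). The lid summed to 1390 ± 175, 2228 ± 142 and 1863 ± 111 TPM (154 TPM, 248 TPM and 207 TPM per gene). Together the 33 subunits made up 0.575%, 0.819% and 0.746% of all TPM in unstressed cells and 1.17%, 1.68% and 1.58% after heat shock. On the deposited scale the Phenol libraries were thus the lowest in every group, and after scaling between libraries the unstressed sums of the 33 genes were 6879 TPM (Phenol), 7990.0 TPM (RNeasy) and 8366 TPM (Direct-zol), with the kits in the reverse order.

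**Figure D1:**
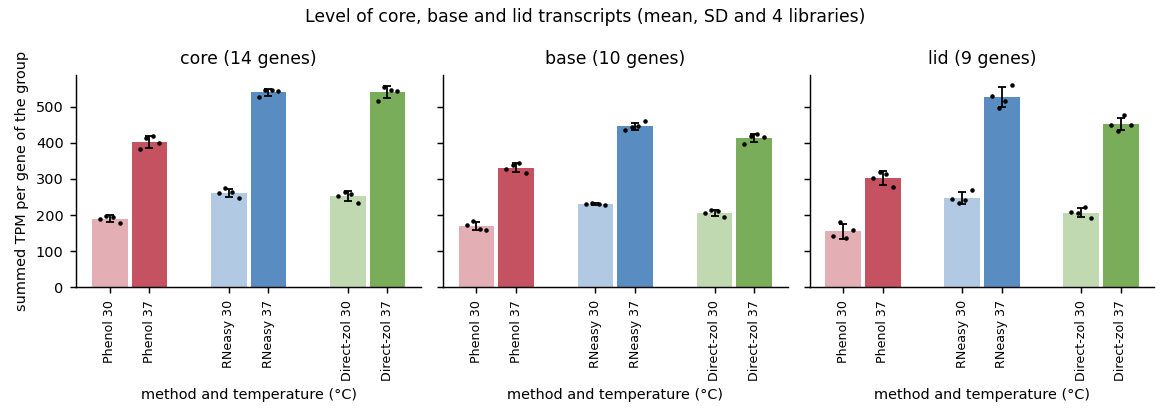
Summed TPM of the core, base and lid genes divided by the number of genes in each group (y axis) for each method at 30 °C (unstressed) and 37 °C (heat shock), as deposited. Bars are means, error bars are SD and points are the 4 libraries. Heat-shocked libraries lie above unstressed ones in every group and method, and the core per gene rose from 190 to 403 TPM with Phenol.

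Several further genes were at lower levels than the subunits. UMP1, a chaperone of core maturation that is degraded once the core is complete, was the exception: at 332 TPM it was the highest of the 40 genes in unstressed Phenol libraries, although its libraries overlapped those of SEM1. RPN4, BLM10, ECM29 and POC4 were the lowest 4 there (56.6, 55.6, 34.8 and 24.3 TPM). RPN4 and BLM10 overlapped in their libraries, as did ECM29 and POC4. PBA1, next above at 57.1 TPM, overlapped RPN4 as well.

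Heat shock raised nearly all of the proteasome genes with every method. Of the 40 members, 39 were called higher and 1, POC4, lower after 20 min at 37 °C with Phenol, with RNeasy and with Direct-zol. Over all transcripts tested, 31.1% were called higher and 32.8% lower with Phenol, 31.3% and 32.1% with RNeasy, and 31.7% and 32.1% with Direct-zol. The median log2 fold change of the members was 0.82 with Phenol, 0.78 with RNeasy and 0.78 with Direct-zol, while that of all transcripts tested was 0.00, 0.01 and 0.02. All 33 subunits rose, by between 0.41 and 1.14 on the log2 scale. Between libraries of the same replicate and method, 39 members were higher in all 12 pairs, on the scaled values and on TPM as deposited. POC4 was lower in all 12 pairs on the scaled values and in 11 as deposited.

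**Figure D2:**
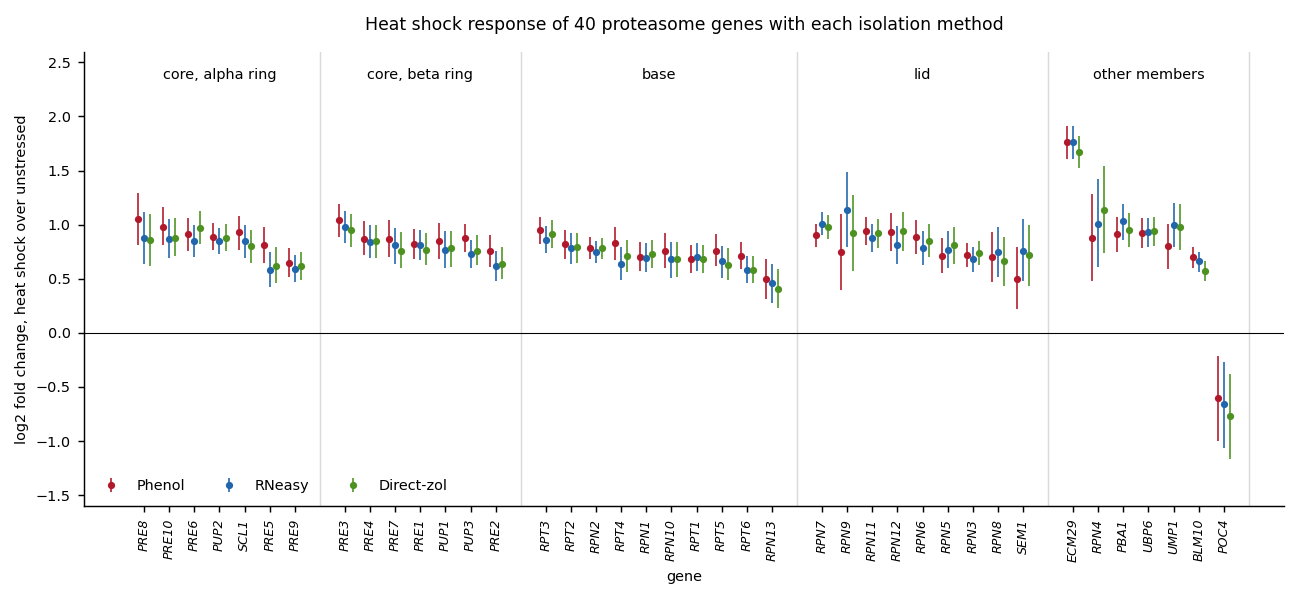
Log2 fold change of heat shock over unstressed (y axis) for each of the 40 genes (x axis), grouped by their place in the proteasome and ordered within a group by the mean over methods. Points are limma estimates for each method (colours) and bars are 95% confidence intervals; 39 genes lie above 0 with each method, ECM29 is the highest and POC4 lies below 0.

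Core, base and lid genes were all called higher, and their medians differed in order between methods. Median log2 fold changes of the core were 0.88 (Phenol), 0.82 (RNeasy) and 0.79 (Direct-zol), those of the base 0.76, 0.68 and 0.70, and those of the lid 0.75, 0.78 and 0.85. The core median was above the base median in all 12 combinations of method and replicate, and the lid median was above that of the base in 10 and above that of the core in 7 of them. The 12 combinations stem from 4 cultures, and no test was made over the members. Within the base, changes ran from 0.50 (RPN13) to 0.95 (RPT3) with Phenol.

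In the alpha ring, median changes were 0.91, 0.85 and 0.86 with Phenol, RNeasy and Direct-zol. PRE8, which encodes the α2 subunit, had the highest mean response. With Phenol, PRE8 was at 133, 135, 176 and 127 TPM in unstressed replicates 1 to 4 and at 299, 364, 334 and 366 TPM after heat shock. With RNeasy PRE8 was at 187, 196, 189.8 and 135 TPM and then at 375, 411, 399 and 366 TPM. In Direct-zol libraries PRE8 was at 197, 199, 199 and 182 TPM and then at 424, 446, 445 and 429 TPM. Heat-shocked libraries were above all unstressed ones with each method. PRE8 rose by 1.05 ± 0.11, 0.88 ± 0.11 and 0.86 ± 0.11 (log2 fold change ± SE, 4 pairs each, SE from the fit of all 24 libraries, limma adjusted p at most 1.44e-06). In a limma fit of only the libraries compared, adjusted p was 0.00078 with Phenol, 0.00014 with RNeasy and 8.8e-05 with Direct-zol.

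PRE9 encodes α3, the only core subunit that yeast can live without, and responded least among the alpha genes. With Phenol, PRE9 was at 180.1, 219, 201 and 185 TPM and rose to 341, 356, 368 and 355 TPM. With RNeasy PRE9 was at 285, 307, 286 and 282 TPM and then at 518, 549, 505 and 532 TPM. In Direct-zol libraries PRE9 was at 277, 291, 279 and 252 TPM and then at 510.4, 526, 517 and 531 TPM. The groups did not overlap with any method, and the log2 fold changes of PRE9 were 0.65 ± 0.06, 0.59 ± 0.06 and 0.62 ± 0.06 (SE, limma adjusted p at most 4.11e-08).

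In the beta ring, median changes were 0.87, 0.81 and 0.77. PRE3 encodes β1, the subunit with the caspase-like activity, and led this ring. With Phenol, PRE3 was at 150.1, 153, 154 and 135 TPM and rose to 319, 388, 353 and 348 TPM. With RNeasy PRE3 was at 183, 182, 178 and 181 TPM and then at 437, 411, 410.0 and 463 TPM. In Direct-zol libraries PRE3 was at 191, 183, 186 and 168 TPM and then at 425, 431, 422 and 454 TPM. Levels were above those of every unstressed library with each method, and PRE3 rose by 1.04 ± 0.07, 0.98 ± 0.07 and 0.95 ± 0.07 (SE, limma adjusted p at most 5.19e-10).

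PRE2, which encodes β5 with the chymotrypsin-like activity, responded least in the beta ring. With Phenol, PRE2 was at 259.9, 245, 216 and 201 TPM and rose to 462, 448, 466 and 417 TPM. With RNeasy PRE2 was at 315, 323, 334 and 292 TPM and then at 573, 587, 574 and 597 TPM. In Direct-zol libraries PRE2 was at 277, 292, 301 and 272 TPM and then at 519, 574, 569 and 544 TPM. Unstressed and heat-shocked libraries did not overlap, and the log2 fold changes of PRE2 were 0.76 ± 0.07, 0.62 ± 0.07 and 0.64 ± 0.07 (SE, limma adjusted p at most 1.18e-07). The 3 subunits with proteolytic sites therefore stood at different places in the order: PRE3 3rd, PUP1, the trypsin-like subunit, 21st and PRE2 33rd of the 40 by mean response.

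Among the base genes, the 6 ATPases had medians of 0.79, 0.68 and 0.70, and RPT3, an ATPase subunit, had the highest mean response. With Phenol, RPT3 was at 154, 165, 158 and 147 TPM and rose to 327, 363, 361 and 339 TPM. With RNeasy RPT3 was at 227, 219, 229 and 196 TPM and then at 463, 472, 464 and 502 TPM. In Direct-zol libraries RPT3 was at 201, 205, 208 and 186 TPM and then at 437, 463, 496 and 462 TPM. The groups did not overlap with any method, and the log2 fold changes were 0.95 ± 0.06, 0.86 ± 0.06 and 0.91 ± 0.06 (SE, limma adjusted p at most 1.55e-10).

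RPN13, a ubiquitin receptor of the base, had the smallest rise of all 33 subunits and no match to PACE. With Phenol, RPN13 was at 125, 138, 122 and 140.3 TPM and rose to 182, 247, 229 and 203 TPM. With RNeasy RPN13 was at 213, 190.0, 205 and 237 TPM and then at 352, 330.2, 320.1 and 395 TPM. In Direct-zol libraries RPN13 was at 197, 184, 213 and 170.2 TPM and then at 304, 284, 328 and 331 TPM. Even for this gene the heat-shocked libraries were above the unstressed ones with each method, and it rose by 0.50 ± 0.09, 0.46 ± 0.09 and 0.41 ± 0.09 (SE, limma adjusted p at most 3.16e-04). RPN10, the other receptor without the element, rose by 0.76, 0.68 and 0.68, and RPN1 and RPN2, the large scaffold subunits, by 0.70 and 0.78 with Phenol.

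In the lid, RPN7, a scaffold subunit, had the highest mean response. With Phenol, RPN7 was at 162, 172, 149 and 152 TPM and rose to 368, 334, 359 and 312 TPM. With RNeasy RPN7 was at 226, 231, 237 and 229.5 TPM and then at 544, 564, 592 and 543 TPM. In Direct-zol libraries RPN7 was at 201, 203, 215 and 199.99 TPM and then at 476, 518, 522 and 483 TPM. The replicates lay close together in each sample type, and RPN7 rose by 0.90 ± 0.05, 1.01 ± 0.05 and 0.98 ± 0.05 (SE, limma adjusted p at most 1.02e-11). RPN11, the deubiquitinase, rose by 0.94 with Phenol, the highest lid value of that method. RPN9 had the largest error of the 33 subunits, with changes of 0.75 ± 0.17, 1.14 ± 0.17 and 0.92 ± 0.17 (SE, limma adjusted p at most 4.96e-04).

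SEM1, a small acidic lid subunit also found in other complexes, had the lowest mean response in the lid, and its replicates lay far apart. With Phenol, SEM1 was at 219, 318, 176 and 316 TPM and rose to 357, 423, 483 and 384 TPM. With RNeasy SEM1 was at 477, 425, 446 and 605 TPM and then at 996, 889, 1069 and 1001 TPM. In Direct-zol libraries SEM1 was at 411, 376, 414 and 334 TPM and then at 726, 754, 862 and 766 TPM. Replicates 2 and 4 of unstressed Phenol were high beside replicates 1 and 3, and on TPM as deposited no heat-shocked library was below an unstressed one of the same method. On the scaled log2 values the Phenol groups overlapped, with replicate 1 at 8.51 after heat shock and replicate 4 at 8.53 unstressed. The log2 fold changes of SEM1 were 0.50 ± 0.14, 0.76 ± 0.14 and 0.72 ± 0.14 (SE, limma adjusted p 0.0029, 5.59e-05 and 1.12e-04). With Phenol the call was lost without replicate 1 (0.53, adjusted p 0.014), without replicate 3 (0.29, adjusted p 0.059) and in a fit of only the libraries compared (0.50, adjusted p 0.04).

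ECM29, an adaptor that binds the core and regulatory particles together, had the largest response of the 40 genes. With Phenol, ECM29 was at 33.2, 43.3, 30.7 and 32.0 TPM and rose to 141, 151, 128 and 129 TPM. With RNeasy ECM29 was at 31.4, 34.1, 29.9 and 26.7 TPM and then at 129, 122, 121 and 134 TPM. In Direct-zol libraries ECM29 was at 17.7, 18.9, 17.8 and 18.0 TPM and then at 82.3, 64.9, 78.5 and 69.5 TPM. The lowest heat-shocked library of each method was far above the highest unstressed one, and ECM29 rose by 1.76 ± 0.07, 1.76 ± 0.07 and 1.67 ± 0.07 (SE, limma adjusted p at most 1.90e-13). In a limma fit of only the libraries compared, adjusted p was 9.9e-06, 7e-06 and 4.5e-05 with Phenol, RNeasy and Direct-zol. By mean response ECM29 lay at the 94.6th percentile of all transcripts tested, and the next 37 members in the order lay between the 88.2nd and the 78.6th percentile.

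POC4, which encodes an assembly chaperone of the alpha ring, was the only member called lower. With Phenol, POC4 was at 22.1, 19.9, 32.5 and 22.8 TPM and fell to 15.0, 19.5, 16.7 and 20.9 TPM. With RNeasy POC4 was at 33.5, 29.6, 28.7 and 19.3 TPM and then at 25.9, 21.1, 15.2 and 20.1 TPM. In Direct-zol libraries POC4 was at 35.2, 34.0, 29.9 and 36.2 TPM and then at 28.4, 22.1, 21.6 and 24.1 TPM. The groups overlapped with Phenol and RNeasy and did not with Direct-zol. Log2 fold changes of POC4 were -0.60 ± 0.19, -0.66 ± 0.19 and -0.77 ± 0.19 (SE, limma adjusted p 0.0079, 0.0040 and 0.0012). These calls were the least stable of the heat shock response: on TPM as deposited, without scaling, the changes were -0.40, -0.41 and -0.48 (adjusted p 0.044, 0.037 and 0.017), and with Phenol the call was also lost without replicates 1, 2 or 3 (adjusted p 0.04, 0.011 and 0.061), with RNeasy without replicates 1, 2 or 3 (adjusted p 0.014, 0.022 and 0.02) and with Direct-zol without replicate 2 (adjusted p 0.012). With Phenol it was lost in addition with median of ratios scaling (-0.59, adjusted p 0.01), with no filter (-0.61, adjusted p 0.011) and in a fit of only the libraries compared (-0.60, adjusted p 0.027).

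The other assembly and associated genes rose. UMP1 changed by 0.80, 1.00 and 0.98 with Phenol, RNeasy and Direct-zol. PBA1, the partner of another alpha ring chaperone, changed by 0.91, 1.03 and 0.95, and UBP6, which removes ubiquitin from substrates at the base, by 0.92, 0.93 and 0.94. BLM10, an activator that caps the core in place of the regulatory particle, changed by 0.70, 0.66 and 0.57.

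RPN4, which encodes the activator that binds PACE, rose with each method and its response differed widely between cultures. With Phenol, RPN4 was at 56.8, 66.8, 48.2 and 54.6 TPM and rose to 87.7, 115, 179 and 116 TPM. With RNeasy RPN4 was at 79.0, 87.1, 89.4 and 85.3 TPM and then at 128, 223, 269.8 and 241 TPM. In Direct-zol libraries RPN4 was at 62.9, 69.1, 71.7 and 65.3 TPM and then at 96.6, 211, 268 and 209 TPM. Heat-shocked libraries were above all unstressed ones of the method, and replicate 1 was the lowest after heat shock with all 3. The log2 fold changes of RPN4 were 0.88 ± 0.19, 1.01 ± 0.19 and 1.14 ± 0.19 (SE, limma adjusted p 4.11e-04, 9.83e-05 and 2.59e-05), and without replicate 3 the value for Phenol was 0.65 (adjusted p 0.011). With the kits the call was kept under every alternative, but less clearly. The highest limma adjusted p was 0.0043 with RNeasy (without replicate 4) and 0.0055 with Direct-zol (only the libraries compared).

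**Figure D3:**
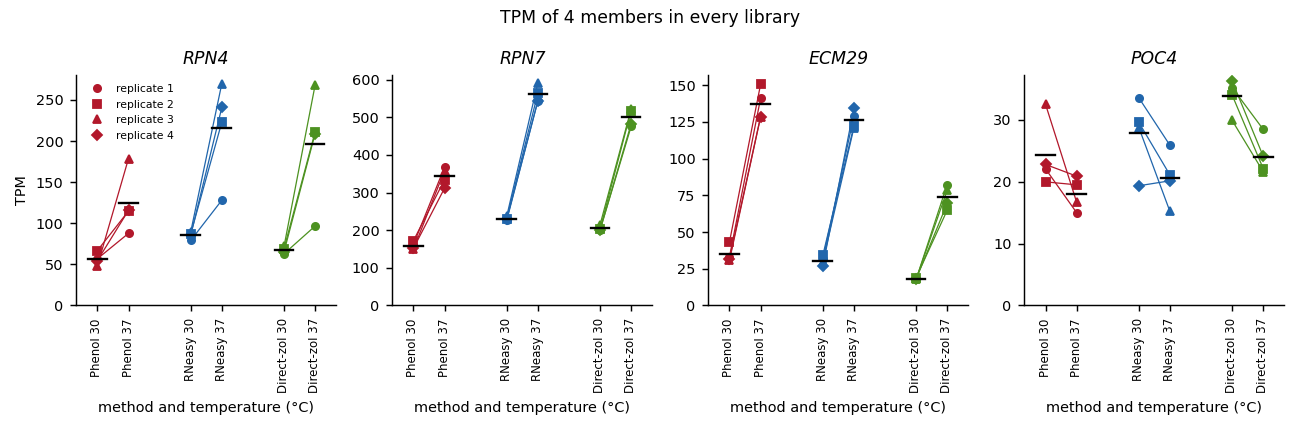
TPM as deposited (y axis) of RPN4, RPN7, ECM29 and POC4 in every library, by method and temperature (x axis). Symbols are biological replicates, lines join libraries of the same replicate and black bars are means of 4. RPN4 in replicate 1 ends at 87.7, 128 and 96.6 TPM, below the other replicates, while RPN7 in the same libraries is at 368, 544 and 476 TPM.

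The response of RPN4 was set beside that of the subunits within each culture. In replicate 1 RPN4 changed by 0.36 (Phenol), 0.40 (RNeasy) and 0.28 (Direct-zol) on the log2 scale, and the median of the 33 subunits by 0.78, 0.72 and 0.70. Replicate 2 gave 0.63, 1.12 and 1.32 for RPN4 and 0.82, 0.76 and 0.75 for the subunits. In replicate 3 RPN4 changed by 1.57, 1.32 and 1.59 and the subunit median by 0.82, 0.76 and 0.77. Replicate 4 gave 0.95, 1.21 and 1.38 for RPN4 and 0.93, 0.82 and 0.91 for the subunits. The smallest values of both thus came from replicate 1 with each method, and RPN4 ranged from 0.28 to 1.59 and the subunit median from 0.70 to 0.93. A median over 33 genes is steadier than a single gene, so RPN4 was also compared with single subunits. Its range over the 4 cultures was 1.21 with Phenol, 0.92 with RNeasy and 1.31 with Direct-zol, against a median range of 0.33, 0.18 and 0.26 for the subunits. No subunit had a wider range with any method, and the widest were SEM1 with Phenol (1.00) and RNeasy (0.55) and RPN9 with Direct-zol (0.66). RPN4 is also at a lower level than the subunits, and the part of this in its spread was not tested. With 4 cultures no correlation was computed.

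**Figure D4:**
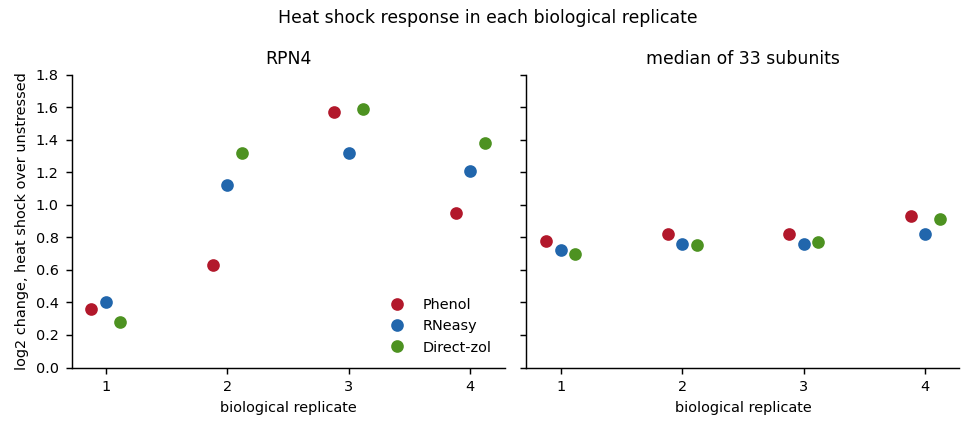
Log2 change between heat-shocked and unstressed libraries of the same method (y axis) for each biological replicate (x axis), for RPN4 on the left and as the median of the 33 subunits on the right. Points are single pairs of libraries, coloured by method. RPN4 spans 0.28 to 1.59 and the subunit median 0.70 to 0.93.

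Members with and without PACE were compared as a description. The 28 members with the element had median changes of 0.87, 0.81 and 0.80 with Phenol, RNeasy and Direct-zol, and all were called higher. The 12 members without it had medians of 0.78, 0.76 and 0.70, and 11 were called higher. Of the 44 other genes with PACE in this window, 43 were tested, and 30, 29 and 30 of them were called higher and 4, 4 and 3 lower (31.1%, 31.3% and 31.7% of all transcripts tested were higher and 32.8%, 32.1% and 32.1% lower), with medians of 0.81, 0.86 and 0.80. In 7 of these 44 the match was that of a member whose promoter they share. For the other 37, of which 36 were tested, 26, 25 and 25 were called higher and 2, 2 and 1 lower, and the medians were 0.80, 0.77 and 0.77.

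Genes that act around the proteasome but are not members moved in the same direction for the most part. Over all transcripts tested, 31.1%, 31.3% and 31.7% were called higher with Phenol, RNeasy and Direct-zol. Of 8 further assembly chaperones, 7 were called higher with each method. HSM3 was among them, but its call was lost with each method without at least 1 of the replicates. The call of PBA2 with Direct-zol was lost in a fit of only the libraries compared (limma adjusted p 0.011). TMA17, a chaperone of regulatory particle assembly, changed most, by 2.61, 2.80 and 2.85, and NAS2 changed by 1.05, 0.99 and 1.03. IRC25, the partner of POC4 in alpha ring assembly, was at -0.10, -0.14 and -0.16 and was not called (limma adjusted p 0.47, 0.31 and 0.24); on TPM as deposited its values were 0.10, 0.12 and 0.14. All 7 genes that deliver ubiquitylated proteins were called higher with each method, from RAD23 (0.35, 0.37 and 0.44; with Phenol not called without replicate 3, at 0.25 with an adjusted p of 0.022, or with only the libraries compared, adjusted p 0.027) to DDI1 (1.54, 1.48 and 1.51). CDC48, the ATPase that extracts such proteins, changed by 0.86, 0.73 and 0.76, and its cofactors UFD1 and NPL4 by 1.34 and 1.24 with Phenol.

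Of the 6 regulators known to act on RPN4 or Rpn4, 5 were called higher with Phenol, 6 with RNeasy and 5 with Direct-zol (31.1%, 31.3% and 31.7% of all transcripts tested). HSF1, the heat shock factor, changed by 0.80, 0.91 and 0.94, YAP1, an oxidative stress activator, by 0.89, 0.88 and 0.90, and PDR1, a drug resistance activator, by 0.71, 0.79 and 0.79. PDR3, the paralog of PDR1, was called with RNeasy (0.31, adjusted p 0.0011, against 0.06 with Phenol and 0.19 with Direct-zol, limma). With Direct-zol it was called on TPM as deposited (0.48, adjusted p 3e-04) and at a threshold of 0.05 (adjusted p 0.033), and the difference between its responses with Phenol and RNeasy was not called (adjusted p 0.99). UBR2, the ubiquitin ligase that marks Rpn4 for degradation, changed by 0.79, 1.15 and 1.00, and its partner MUB1 by 0.26, 0.30 and 0.30. MUB1 was not called with Phenol without replicate 2 or with only the libraries compared (adjusted p 0.026 in both), nor with Direct-zol without replicate 3 (adjusted p 0.012).

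The heat shock response of the members was then compared between the methods, with the difference of responses as the test. None of the 40 members was called in any of the 3 comparisons in limma, as was none of the 6137 transcripts (0%), and no member had an unadjusted p under 0.05, against 4.35% of transcripts for Phenol minus RNeasy, 4.40% for Phenol minus Direct-zol and 1.12% for RNeasy minus Direct-zol. The members' differences ranged from -0.38 (RPN9) to 0.23 (PRE5) for Phenol minus RNeasy, from -0.26 (RPN4) to 0.19 (PRE8) for Phenol minus Direct-zol and from -0.13 (RPN12) to 0.21 (RPN9) for RNeasy minus Direct-zol. For ECM29 the difference between Phenol and Direct-zol was 0.09 (95% confidence interval -0.13 to 0.30), and for RPN4 it was -0.26 (-0.83 to 0.31). The interval of RPN7 was -0.24 to 0.07. The intervals for RPN4 thus left room for a much larger difference than those for RPN7. The replicate block is the same for both treatments. A response that differs between cultures alike with all methods therefore stays in the error and can widen these intervals. Across the 40 members, the responses of 2 methods, which share no libraries but share cultures, had a Pearson's r of 0.92 (Phenol and RNeasy), 0.94 (Phenol and Direct-zol) and 0.98 (RNeasy and Direct-zol), with ECM29 and POC4 at the ends. Over the 33 subunits r was 0.60, 0.75 and 0.89.

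The levels themselves differed between Phenol and the kits. In unstressed cells, 16 members were called lower with Phenol than with RNeasy and 2 higher, where 19.8% of all transcripts tested were called lower and 22.1% higher. These counts were 10 and 1 without replicate 4 and in a fit of only the libraries compared, and 1 member was higher without replicate 1 or 3. Against Direct-zol, 23 members were lower and 4 higher with Phenol (21.6% and 22.9% of all), where 2 were higher without replicate 1 or 2. The same 16 members were lower than with both kits, and the median log2 differences of the members were -0.18 and -0.27, against -0.01 and -0.02 for all transcripts. After heat shock, 13 members were lower and 2 higher with Phenol than with RNeasy (21.1% and 22.6% of all), and 20 lower and 4 higher than with Direct-zol (20.8% and 21.8%). Without replicate 4 the lower calls after heat shock were 8 against RNeasy and 13 against Direct-zol, as they were with only the libraries compared, and the higher calls against Direct-zol were 2 without any 1 replicate. RPN4 was not called between any methods: the unstressed differences were -0.30, -0.16 and 0.14 and those after heat shock -0.43, -0.42 and 0.01 (Phenol minus RNeasy, Phenol minus Direct-zol and RNeasy minus Direct-zol, limma adjusted p at least 0.063).

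The lower calls were spread over core, base and lid, and a difference between the groups was not tested. With Phenol, 7 of 9 lid genes were lower than with RNeasy and 7 lower than with Direct-zol in unstressed cells, with medians of -0.27 and -0.34. Of the 7 lid calls against RNeasy, 4 were kept without replicate 4 and in a fit of only the libraries compared, with RPN3 (adjusted p 0.016 and 0.025), RPN6 (0.062 and 0.039) and RPN7 (0.016 and 0.013) lost in both. Of the 7 against Direct-zol, 4 were kept without replicate 1 and 4 without replicate 3. Of the 14 core genes, 4 and 8 were lower (medians -0.17 and -0.28), and of the 10 base genes, 4 and 6 (medians -0.15 and -0.26). Of the 4 core calls against RNeasy, 2 were kept without replicate 1, 2 or 4 and with only the libraries compared. Of the 8 core calls against Direct-zol, 5 were kept without replicate 2. SEM1, with the values given above, differed by -0.66 ± 0.14 from RNeasy and by -0.52 ± 0.14 from Direct-zol in unstressed cells (SE, limma adjusted p 5.01e-04 and 0.0034) and by -0.92 and -0.73 after heat shock. The unstressed call of SEM1 against Direct-zol was lost in a fit of only the libraries compared (adjusted p 0.04), without replicate 1 (-0.43, adjusted p 0.052) and without replicate 3 (-0.37, adjusted p 0.028). RPN5, a lid scaffold, differed by -0.58 and -0.37 and RPN8, the partner of RPN11, by -0.53 and -0.55.

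In the core, PRE1, the β4 subunit, differed most. In unstressed cells PRE1 was at 189, 215, 211 and 209.6 TPM with Phenol, at 378, 362, 366 and 332 TPM with RNeasy and at 337, 334, 343 and 302 TPM with Direct-zol. After heat shock PRE1 was at 392, 451, 409 and 433 TPM with Phenol, at 693, 732, 800.3 and 804 TPM with RNeasy and at 687, 665, 726 and 696 TPM with Direct-zol. Every Phenol library was below every kit library of the same treatment. On the scaled values the unstressed differences were -0.51 ± 0.07 and -0.58 ± 0.07 (SE, limma adjusted p 4.89e-06 and 1.17e-06), while its heat shock responses of 0.82, 0.81 and 0.77 differed by 0.01 between Phenol and RNeasy (95% confidence interval -0.19 to 0.21).

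ECM29 and BLM10 differed in the other direction, and between the kits as well. ECM29 was higher with Phenol than with RNeasy by 0.46 ± 0.07 and than with Direct-zol by 0.99 ± 0.07 in unstressed cells (SE, limma adjusted p 2.77e-05 and 6.70e-09), and with RNeasy it was higher than with Direct-zol by 0.52 ± 0.07 (adjusted p 1.13e-04). On TPM as deposited the difference of ECM29 from RNeasy was 0.18 and was not called (adjusted p 0.1). BLM10 was higher with Phenol by 0.20 (-0.09 on TPM as deposited, and not called without replicates 1, 3 or 4) and 0.56, and with RNeasy over Direct-zol by 0.36. RPN1 (0.26) and RPN2 (0.17) were also called higher with Phenol than with Direct-zol, but these calls were lost under several settings. RPN1 was not called on TPM as deposited (0.17, adjusted p 0.045), with quantile normalization (0.18, adjusted p 0.1) or without replicate 1 or 2 (adjusted p 0.011 and 0.019). RPN2 was not called on TPM as deposited (0.08, adjusted p 0.24), with quantile normalization (0.09, adjusted p 0.23), in a fit of only the libraries compared (adjusted p 0.065), without the replicate block (adjusted p 0.011) or without replicates 1, 2 or 3 (adjusted p 0.069, 0.046 and 0.066). These 4 are the longest genes of the 40: BLM10 has a coding length of 6432 bases, ECM29 of 5607, RPN1 of 2982 and RPN2 of 2838 bases, and SEM1 of 270 bases is the shortest.

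**Figure D5:**
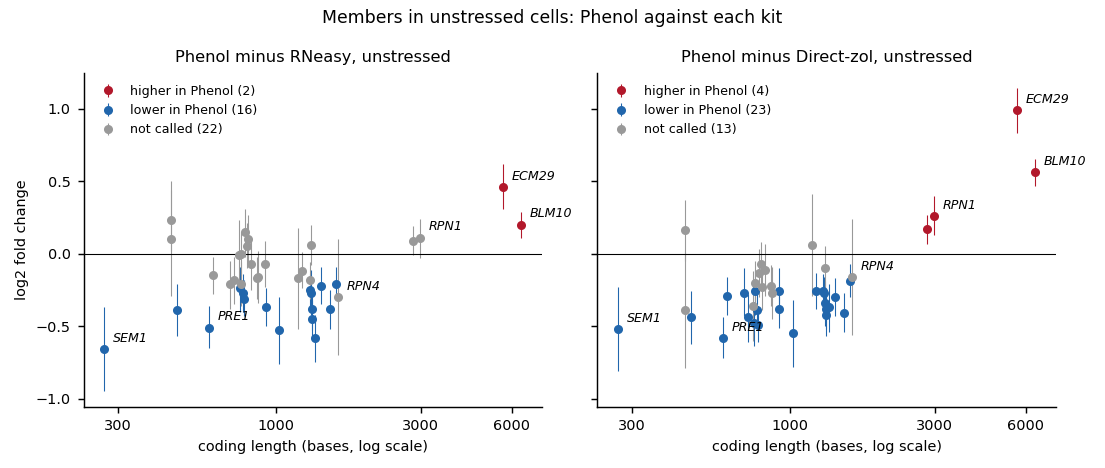
Log2 difference between Phenol and RNeasy (left) and between Phenol and Direct-zol (right) in unstressed cells (y axis) against coding length in bases on a log scale (x axis) for the 40 genes. Points are limma estimates, bars 95% confidence intervals and colours the calls. The 4 genes over 2500 bases lie above 0 in both panels, and most of the shorter genes lie below it.

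Across the members, coding length went with the difference between methods, as a description of 40 genes that share the same libraries. This is not particular to the members: beyond them, the paper found transcript length weakly to moderately correlated with the differences between Phenol and the kits. The paper reports that RNA integrity was on average highest with Phenol and lowest with Direct-zol. It also repeated its analysis with integrity as a factor. Most of its calls between Phenol and RNeasy were kept, while far fewer remained between Phenol and Direct-zol. Integrity was not part of the fit here, so method and RNA integrity cannot be told apart in these differences. Pearson's r between log2 length and the unstressed difference was 0.38 for Phenol minus RNeasy, 0.70 for Phenol minus Direct-zol and 0.65 for RNeasy minus Direct-zol (n = 40), and Spearman's rho was 0.06, 0.43 and 0.59. Without ECM29 and BLM10 (n = 38) r was 0.10, 0.44 and 0.43. The 4 genes over 2500 bases had median differences of 0.15, 0.41 and 0.26, and the 22 genes under 1000 bases had -0.17, -0.28 and -0.12. The 14 genes in between had -0.26, -0.29 and -0.03, so that against RNeasy the difference did not grow evenly with length. With the heat shock response (Phenol, RNeasy and Direct-zol), length had an r of 0.39, 0.35 and 0.35 over the 40 members, and a rho of 0.01, 0.08 and 0.13. Without ECM29 and BLM10 r was 0.28, 0.24 and 0.29, and over the 33 subunits it was 0.07, 0.03 and 0.11.

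The kits differed little from each other in these genes. In unstressed cells 2 members, ECM29 and BLM10, were called higher and 1, RPN10, lower with RNeasy than with Direct-zol (2.93% and 0.961% of all transcripts tested). After heat shock the counts were again 2 higher and 1 lower, for the same genes (3.68% and 0.750% of all). RPN10 differed by -0.33 ± 0.08 and -0.33 ± 0.08 (SE, limma adjusted p 0.0099 and 0.0088) and was not called without the replicate block (adjusted p 0.031 and 0.028) or when any 1 replicate was left out (adjusted p 0.029 to 0.096 unstressed and 0.015 to 0.091 after heat shock).

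The comparison of methods depended on the scaling between libraries more than the heat shock response did. On TPM as deposited, the median of all transcripts was -0.28 for Phenol minus RNeasy, -0.11 for Phenol minus Direct-zol and 0.16 for RNeasy minus Direct-zol in unstressed cells, and 0.19, 0.26 and 0.29 for the heat shock response with Phenol, RNeasy and Direct-zol. Relative to those shifts the medians of the members were lower with Phenol on that scale too (-0.48 and -0.36). Against RNeasy 31 members were lower and 0 higher, where 2606 of the 6137 transcripts tested were lower and 735 higher. Against Direct-zol 29 were lower and 2 higher (1664 and 1095 of all). These counts hold the shift of all transcripts, so they are not comparable with those of the scaled fit. After heat shock that scale gave 31 lower and 0 higher against RNeasy (2941 and 656 of all). Against Direct-zol it gave 31 lower and 2 higher (2204 and 891 of all). For RNeasy minus Direct-zol it gave 6 higher and 0 lower unstressed (728 and 12 of all). After heat shock this comparison gave 3 higher and 0 lower (455 and 7 of all). With quantile normalization RNeasy minus Direct-zol gave 2 higher and 0 lower unstressed (147 and 24 of all). After heat shock it gave 4 higher and 0 lower (246 and 55 of all). On TPM as deposited BLM10 changed its direction against RNeasy (-0.09 unstressed and -0.11 after heat shock), as did RPN2 against Direct-zol after heat shock (-0.01). The 39 rises after heat shock were called on that scale with every method, with medians of 1.03, 1.04 and 1.09. Over all transcripts 2457, 2668 and 2815 were called higher there.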

How the data were processed

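RNA was measured in 24 polyA-enriched libraries (3 isolation methods, unstressed or heat shocked, 4 replicates). The authors trimmed reads with Trimmomatic, aligned them with STAR to R64 (sacCer3) and deposited TPM values estimated with RSEM. A second deposited table holds the authors' own fold changes and p-values and was not used. The TPM table holds no counts, and the depth of the libraries was not analysed here.

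TPM was scaled between libraries by trimmed means of log ratios (trim 30% and 5%, factors 0.776 to 1.27), and log2(TPM + 1) of the 6137 of 6685 transcripts with a mean of at least 1 TPM in a sample type was fitted with limma 3.58.1 (R 4.3.3) on sample type and replicate, with a trended prior and Benjamini-Hochberg adjustment. A fold change on this scale understates changes of low genes. The procedure was tested on simulated data for the heat shock response with Phenol only. The simulated libraries were independent, without shared cultures, so the comparisons of methods and of responses were not covered. The replicate is a block because same-numbered libraries came from 1 culture. Within a treatment, their deviations from group means had a mean correlation of 0.192 (24 pairs), against -0.0634 for libraries of different numbers (72 pairs). Across treatments it was 0.00661 (36 pairs), against -0.00259 (108 pairs). These values thus show hardly any likeness between unstressed and heat-shocked libraries of the same number.

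The members and lists were chosen with earlier results of these data known. Values in every library are given for RPN4, for the members with the highest and lowest mean heat shock response of each group and for up to 3 members with the largest difference between Phenol and both kits. Sequences are from RefSeq R64, in which all 40 members were found and none overlapped another gene. Python 3.11.15 was used for levels and motifs. Alternatives were other scalings, pseudocounts, filters, blocks, a fit of fewer libraries, no trend, another threshold, leaving out replicates and, chosen after seeing the data, a longer promoter window.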

Additional observations from a re-analysis of the deposited data

Results flagged for a closer look

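In groups of 4 libraries, a library was listed here when its gap to the nearest other one, divided by the range of the group, was above Dixon's critical value. This held for 6 of 108 groups, where chance gives about 1 in 20, and over all 40 members for 15 of 240 groups (6.25%). PRE8 was at 176.32 TPM in replicate 3 of unstressed Phenol, above the others (127.24 to 134.87 TPM). In unstressed RNeasy it was at 135.09 TPM in replicate 4, below the others (187.27 to 195.69 TPM), and in unstressed Direct-zol at 182.02 TPM in replicate 4, below 196.63 to 199.45 TPM. PRE9 was at 306.83 TPM in replicate 2 of unstressed RNeasy, above 281.96 to 285.83 TPM. The summed level of the core was 7367 TPM in replicate 1 of heat-shocked RNeasy, below 7614 to 7653 TPM, and that of the beta ring was 3597 TPM in replicate 1 of heat-shocked Direct-zol, below 3812 to 3838 TPM. PRE8 rose after heat shock without each of the 4 replicates in turn.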

How the results depend on the processing

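All 40 heat shock calls per method were kept without the replicate block, and 37 to 40 (Phenol), 39 to 40 (RNeasy) and 39 to 40 (Direct-zol) members were called when 1 replicate was left out. No difference between responses was called for a member under any alternative run. Members called between methods, in either direction, depended on the setting. For Phenol minus RNeasy the 18 unstressed calls became 31 on TPM as deposited, 11 in a fit of only the libraries compared and 11 to 16 without 1 replicate (11 without replicate 4), and the 15 calls after heat shock became 31, 9 and 10 to 13, and 28 with quantile normalization. For Phenol minus Direct-zol, 27 became 18 to 22 without 1 replicate, and 24 after heat shock became 15 with only the libraries compared and 15 to 19 without 1 replicate (15 without replicate 4). For RNeasy minus Direct-zol, 3 became 6 as deposited, 5 with only the libraries compared and 6 at a threshold of 0.05, and after heat shock 3 became 5 at 0.05; 2 were called without any 1 replicate at either temperature. The counts over all transcripts on TPM as deposited are given above. With quantile normalization, Phenol minus RNeasy after heat shock had 1283 higher and 1399 lower calls over all transcripts. The cause was not tested. Directions changed on TPM as deposited for BLM10 in Phenol minus RNeasy (-0.09 and -0.11), RPN2 in Phenol minus Direct-zol after heat shock (-0.01) and the uncalled response of IRC25 (0.10, 0.12 and 0.14), which without 1 replicate ran from -0.29 to 0.05 with Phenol.

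Without the replicate block, 6 of 90 calls between methods were lost (counts of 17, 25 and 2 unstressed and 14, 24 and 2 after heat shock), among them RPN10 (adjusted p 0.031 and 0.028) and RPN2 (0.17, adjusted p 0.011, limma). The deposited TPM values hold no counts, so no limit from counting error was computed.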
